A study of Mus musculus with 6 samples.

Results

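The genes of G2 phase and mitosis examined here are 47 named genes of the division machinery: the kinases and cyclins that drive entry, the proteins that condense and hold chromosomes, the kinetochore and spindle, and the proteins that separate sisters and cut the cell apart. They were taken by gene symbol from a list of such genes, with no threshold on their values, and all 47 were found among the 21958 gene rows of the deposited table and passed the expression filter. The study asked what bone marrow stromal cells (BMSCs), in work on polycaprolactone scaffolds carrying these cells and basic fibroblast growth factor, do to the transcripts of inflamed macrophages. Poly(A)-selected RNA was sequenced from RAW264.7, an established mouse macrophage line that divides continuously in culture. In the first group, RAW264.7 cells exposed to lipopolysaccharide (LPS, a bacterial outer-membrane component) were co-cultured with BMSCs (3 libraries). In the second, RAW264.7 cells had LPS alone (3 libraries). Both groups thus carried LPS, and no library without it was analysed here. The sample labels give neither LPS dose nor time, nor whether these co-cultures held a scaffold or growth factor. They call the replicates biological without naming separate cultures, so p-values measure the spread between these libraries.

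In a dividing cell, Cdk1 bound to a cyclin starts mitosis once CDC25 phosphatases remove the phosphates that hold it inactive, and PLK1 and the Aurora kinases amplify the switch. Condensins and topoisomerase II then compact the chromosomes, kinetochores attach them to spindle microtubules, and the checkpoint kinases hold back the anaphase-promoting complex (APC/C) until attachment is complete. CDC20 then activates the APC/C, securin and cyclin B are destroyed, separase cuts cohesin, and the central spindle places the cleavage furrow. Transcripts of these genes peak in G2 phase and mitosis under the transcription factors MuvB, B-MYB and FOXM1. They are widely read as a mark of how much of a culture is dividing.

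Macrophage markers were high in all 6 libraries: the 10 markers summed to 25961.2 to 28773.0 CPM (read counts relative to a library total scaled by TMM, which sets the typical gene equal between libraries; every CPM value here is so scaled) in co-culture and to 16939.4 to 17351.4 CPM with LPS alone. The most abundant were Lyz2 and Cd14, with means of 17947.7 and 5801.5 CPM in co-culture against 10963.7 and 3153.3 CPM with LPS alone. Of the 9 tested, 4 passed as higher (44.4%, against 37.5% of all genes), 2 as lower (22.2%, against 38.0%) and 3 did not pass. Mertk was too low to test. The 2 lower were Ptprc and Fcgr1, with means of 160.5 and 177.6 CPM in co-culture against 305.4 and 305.7 CPM with LPS alone. With the length and GC offset described below, 3 markers were higher (33.3%, against 35.4%) and 2 lower (22.2%, against 36.0%), and Ptprc did not pass. The 16 stromal markers summed to 19.5 to 22.6 CPM in co-culture and 13.0 to 14.5 CPM with LPS alone. Most of this was Acta2, a gene that is not specific to BMSCs, which averaged 18.3 CPM in co-culture, against 10.2 CPM with LPS alone, and passed as higher. Lum averaged 0.378 CPM in co-culture, against 1.04 CPM with LPS alone, and passed as lower (adjusted p = 0.0111). Dcn averaged 1.58 CPM in co-culture, against 1.61 CPM with LPS alone, and did not pass, though it passed as higher with the length and GC offset described below (adjusted p = 0.0323). Col1a2, Col3a1, Thy1, Cxcl12 and Postn had 0 counts in every library. The part of these marker differences in the results below was not tested. Depth ran from 17716460 to 22539884 counts per library.

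Most of the 47 genes were lower in co-culture. By edgeR's quasi-likelihood test with Benjamini-Hochberg adjustment over 11103 genes, 33 members (70.2%) fell at an adjusted p of 0.05, against 38.0% of all genes tested. A rise was called for 7 members (14.9%), against 37.5% of all genes, and 7 did not pass. At a fold of at least 1.5, 22 members (46.8%) fell, against 22.7% of all genes, and 1 (Cks2) rose, 2.1% against 20.8%. The 3 co-culture libraries lay wholly below the 3 LPS libraries for 36 members, 76.6% against 40.4% of all genes, and wholly above for 8 members, 17.0% against 39.8%. The groups overlapped for Cdk1, Ccnb1 and Aurka. The median log2 fold change of the members was -0.51, with a range of -1.99 to 1.17, while that of all genes tested was 0.00. In bulk RNA, fewer cells in G2 or mitosis and less of these transcripts per cell cannot be told apart. In addition, 10 members (Ccna2, Cdc25b, Cdc25c, Ncapg, Kif4, Kif18a, Cdc20, Ube2c, Prc1 and Kif20a) overlap a protein-coding gene on the opposite strand, and reads in the overlap cannot be assigned if strand was not used in counting.

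Taken as a sum, the 47 genes made up 2727.8, 2997.7 and 2994.8 CPM in the co-culture libraries, and 4259.1, 4129.9 and 4186.1 CPM in the LPS libraries. Every co-culture sum lay below every LPS sum. As a share of the raw counts this was 0.249%, 0.286% and 0.285% in co-culture, against 0.453%, 0.440% and 0.445% with LPS alone. Co-culture replicate 1 was the lowest of its group: 41 of 47 members lay below their group mean there, with a median deviation of -0.10 log2 units, against 0.08 and 0.06 in replicates 2 and 3. The median SD of a member on the log2 scale was 0.114 in co-culture and 0.039 with LPS alone, beside 0.137 and 0.058 over all genes tested. Without co-culture replicate 1, 34 members fell, 7 rose and the median was -0.47.

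**Figure D1:**
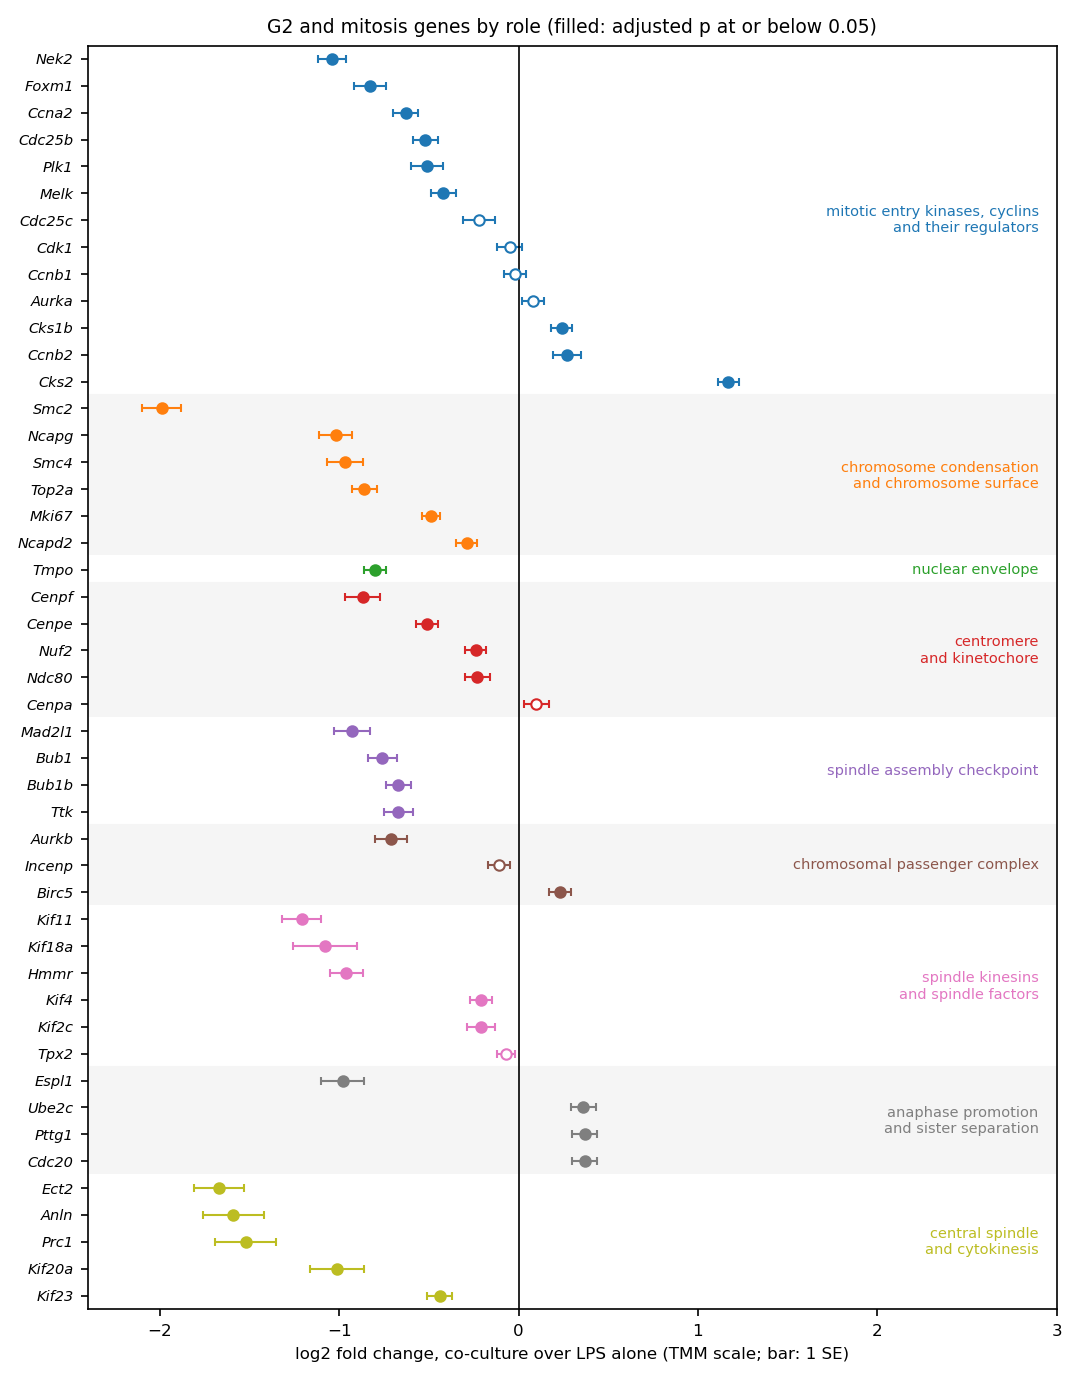
The log2 fold change of each of the 47 genes, co-culture over LPS alone, is plotted with a bar of 1 SE, grouped by role; filled points passed an adjusted p of 0.05. Smc2, Ect2, Anln and Prc1 stand farthest to the left, and Cks2 stands alone at 1.17 on the right.

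Fold change followed the length and base composition of the gene, among the members as among all genes, and this bears on each value below. Across the 47 members the log2 fold change had a Pearson r of -0.66 (Spearman -0.60) with log gene length and 0.41 (0.45) with the GC content of the longest transcript. Across 11072 genes with both properties these were -0.45 (-0.50) and 0.37 (0.42). The points share the same 6 libraries, and genes are not independent replicates, so the correlations are descriptions only. The 23 members longer than 4934 bases had 22 falls, no rise and a median of -0.87. The 24 members of that length or shorter had 11 falls, all 7 rises and a median of -0.16. Of all genes tested, whatever their length, 38.0% fell and 37.5% rose. The shares among all genes of matching length were not taken, so these counts do not set the members apart from other genes. Cks2, with the highest fold change, was also the shortest at 692 bases.

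**Figure D2:**
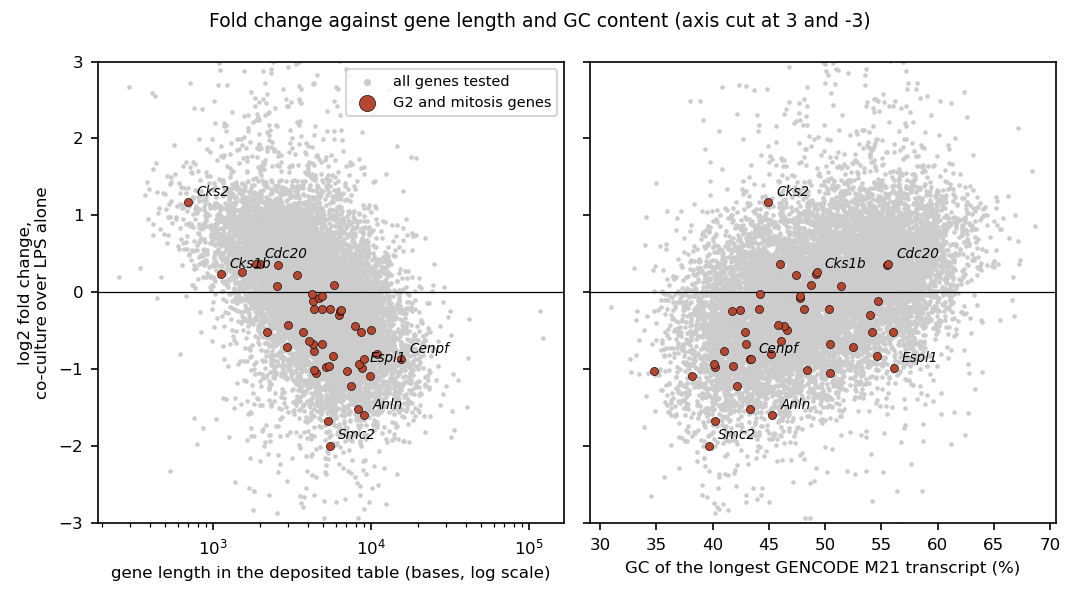
Log2 fold change, co-culture over LPS alone, is plotted against gene length in bases (left, log scale) and against GC content in percent (right), with all genes tested in grey and the 47 G2 and mitosis genes in red. In both panels the red points follow the slope of the grey cloud, and Cks2 marks the short end.

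A fit in which each library's smooth trend with length and GC content was taken out (an offset) was therefore run as well, and its values are called offset values. With the offset, 30 members (63.8%) were lower, against 36.0% of all genes in that fit, and 6 (12.8%) were higher, against 35.4%. By at least 1.5-fold, 13 (27.7%) were lower, against 15.5% of all genes, and none was higher, against 14.7%. The median was -0.27. Of the 33 that fell, 25 also passed as lower with the offset, 6 did not pass, and Ndc80 and Nuf2 passed as higher. Of the 7 that rose, Cks2 and Birc5 also passed as higher, Ccnb2, Cks1b and Cdc20 passed as lower, and Ube2c and Pttg1 did not pass. Among the 16 alternative settings run, 25 members had the same call and direction in all: Cks2 as higher and 24 as lower. Those 24 are Ccna2, Cdc25b, Plk1, Nek2, Foxm1, Melk, Smc2, Smc4, Ncapd2, Ncapg, Top2a, Tmpo, Bub1, Bub1b, Mad2l1, Ttk, Aurkb, Kif11, Hmmr, Espl1, Kif20a, Prc1, Ect2 and Anln. Scaling by library totals, in place of TMM, moved the median of all genes by -0.177 and the share of rises among all calls to 38.3% (49.6% with TMM); 38 members then fell (80.9%, against 46.7% of all genes) and 4 rose (8.51%, against 29.0%), namely Cks2, Cdc20, Ube2c and Pttg1. Whether the trend comes from the libraries or from the cells was not tested.

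**Figure D3:**
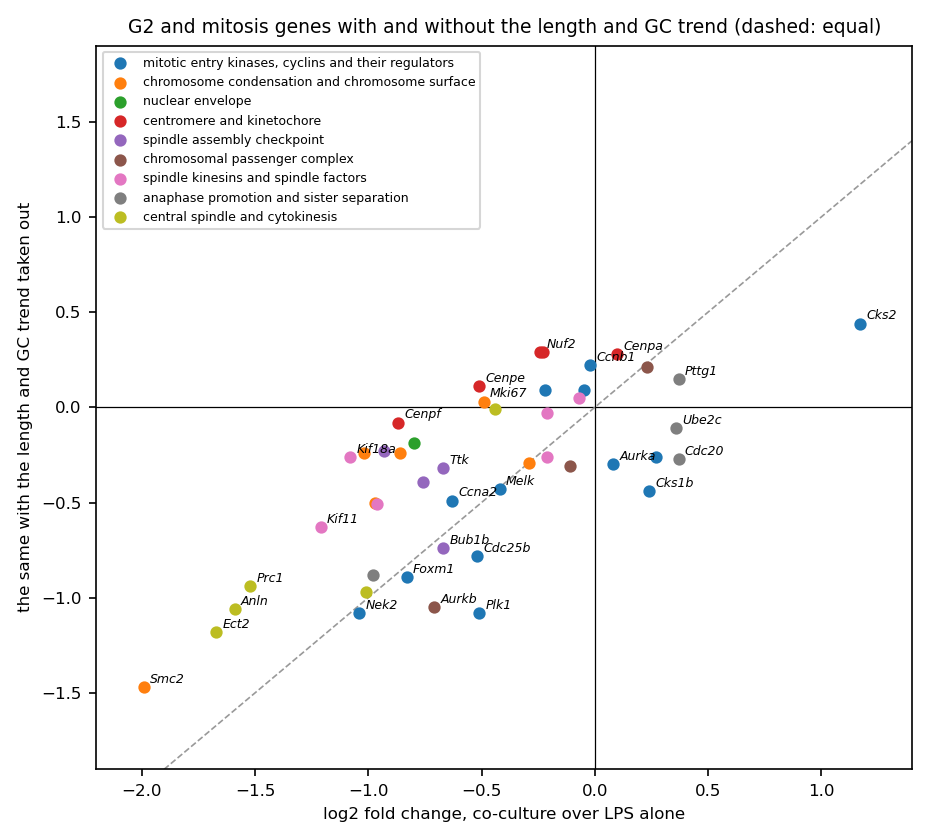
Each point is 1 of the 47 genes, placed by its log2 fold change (co-culture over LPS alone) on the horizontal axis and by the same value once the length and GC trend was removed on the vertical axis; the dashed line marks equal values. Smc2, Ect2, Anln and Prc1 stay far below 0 on both axes, whereas Cdc20, Ccnb2 and Cks1b lie right of 0 and below it.

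The promoters of these genes carry a known signature: a CHR element (cell cycle genes homology region), bound by MuvB complexes, and CCAAT boxes, bound by NF-Y. RefSeq windows on GRCm38.p6, from 250 bases before to 50 after the transcription start, were matched for 39 of the 47 genes (42 windows). A CHR, searched as TTTGAA or TTTAAA on either strand, was present in 33 of the 42 windows (78.6%), and in 27.6% of all 32851 promoter windows of that length. CCAAT on either strand was present in 32 (76.2%), and in 37.4% of all windows, and both together in 28 (66.7%), and in 10.7% of all. The 250 bases before the start are printed for the 2 falls and the 2 rises with the smallest adjusted p among members with a matched window. Capitals mark CHR and CCAAT letters in either orientation, and the motifs do not overlap in these sequences. Smc2 (chr4:52438971-52439220, plus strand) and Top2a (chr11:99024190-99024439, minus strand) fell, Cks2 (chr13:51644982-51645231, plus strand) and Cdc20 (chr4:118437344-118437593, minus strand) rose.
Smc2: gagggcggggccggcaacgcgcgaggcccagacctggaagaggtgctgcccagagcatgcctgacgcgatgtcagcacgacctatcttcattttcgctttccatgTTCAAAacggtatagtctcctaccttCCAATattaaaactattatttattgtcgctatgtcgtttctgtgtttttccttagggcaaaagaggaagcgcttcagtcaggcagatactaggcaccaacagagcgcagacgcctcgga
Top2a: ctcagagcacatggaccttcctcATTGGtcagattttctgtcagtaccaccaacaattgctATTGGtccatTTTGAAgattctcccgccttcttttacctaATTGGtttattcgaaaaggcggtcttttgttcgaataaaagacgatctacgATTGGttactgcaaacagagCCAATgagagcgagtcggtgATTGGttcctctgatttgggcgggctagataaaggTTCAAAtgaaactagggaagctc
Cks2: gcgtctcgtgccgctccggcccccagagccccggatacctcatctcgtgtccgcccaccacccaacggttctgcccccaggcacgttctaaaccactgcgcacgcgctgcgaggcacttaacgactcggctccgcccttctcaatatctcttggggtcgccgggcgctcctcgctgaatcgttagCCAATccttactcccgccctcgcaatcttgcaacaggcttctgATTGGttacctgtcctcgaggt
Cdc20: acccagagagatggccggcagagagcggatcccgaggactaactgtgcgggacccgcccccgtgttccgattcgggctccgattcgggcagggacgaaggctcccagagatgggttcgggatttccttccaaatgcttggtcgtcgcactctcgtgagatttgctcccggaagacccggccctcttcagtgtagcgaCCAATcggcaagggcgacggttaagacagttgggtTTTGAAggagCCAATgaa
Top2a has 2 CHR matches and 6 CCAAT boxes in this stretch, Smc2 has 1 of each, Cdc20 has 1 CHR with CCAAT boxes on both sides, and Cks2 has 2 CCAAT boxes and none of the CHR letters. Medians were close with and without the CHR. The 30 members with a CHR had 21 falls, 5 rises and a median log2 fold change of -0.50, and the 9 without it had 7 falls, 2 rises and a median of -0.52. For CCAAT the 30 members with it had 21 falls, 5 rises and a median of -0.52, and the 9 without it had 7, 2 and -0.24. A match to these letters is not a measured binding site.

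Among the 13 kinases, cyclins and regulators of mitotic entry, 6 fell (46.2%, against 38.0% of all genes), 3 rose (23.1%, against 37.5%) and 4 did not pass (median -0.22). With the offset 9 were lower (69.2%, against 36.0% of all genes) and 2 higher (15.4%, against 35.4%), with a median of -0.43. Under library totals 9 were lower (69.2%, against 46.7%) and 1 higher (7.69%, against 29.0%), with a median of -0.40. The core pair itself did not pass under TMM scaling without the offset. Cdk1 (chr10:69335146-69352938), the kinase of mitotic entry, had 86.9, 97.8 and 90.4 CPM in co-culture and 101.0, 90.8 and 93.7 CPM with LPS alone (log2 fold change -0.05 ± 0.07 SE, adjusted p = 0.484). Ccnb1 (chr13:100778650-100786570), its main mitotic cyclin, had 90.9, 94.2 and 99.8 CPM in co-culture and 100.6, 92.7 and 95.5 CPM with LPS alone (-0.02 ± 0.06, adjusted p = 0.788). The libraries of both groups interleave for both genes. With the offset their log2 fold changes were 0.09 (adjusted p = 0.162) and 0.22 (adjusted p = 0.00156). Under library totals both passed as lower, Cdk1 at -0.23 (adjusted p = 0.0162) and Ccnb1 at -0.20 (adjusted p = 0.0213).

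Ccna2, the cyclin of S phase and G2 that precedes cyclin B, fell. Its levels were 54.5, 65.0 and 64.8 CPM in co-culture, against 95.1, 94.0 and 95.5 CPM with LPS alone (1.54-fold lower, log2 fold change -0.63 ± 0.07, adjusted p = 3.32e-05, offset -0.49). All co-culture libraries lay well under the narrow LPS range. Nek2 (chr1:191821444-191833050), a centrosome kinase that splits the centrosomes at entry, fell the most in this set, to 21.7, 26.2 and 25.2 CPM in co-culture, against 50.6, 51.1 and 48.5 CPM with LPS alone (2.05-fold lower, adjusted p = 3.08e-06). Its log2 fold change was -1.04, and -1.08 with the offset.

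Foxm1 (chr6:128362967-128376146), the transcription factor that drives many of the other members in G2, had 33.3, 42.8 and 34.7 CPM in co-culture, against 65.5, 65.8 and 66.2 CPM with LPS alone (1.78-fold lower, log2 fold change -0.83 ± 0.09, adjusted p = 2.12e-05, offset -0.89). Even the highest co-culture library was under the LPS libraries, which agreed closely. Plk1, the polo-like kinase of entry and spindle assembly, fell by 0.51 on the log2 scale and by 1.08 with the offset. Its levels were 22.2, 26.1 and 22.0 CPM in co-culture and 32.4, 35.1 and 32.9 CPM with LPS alone (adjusted p = 0.00035). Melk, a kinase of proliferating cells, fell by 0.42, and by 0.43 with the offset.

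The CDC25 phosphatases, which activate Cdk1, moved unequally. Cdc25b had 34.6, 36.7 and 35.7 CPM in co-culture and 48.3, 53.3 and 51.8 CPM with LPS alone (1.44-fold lower, adjusted p = 5.61e-05, log2 fold change -0.52, offset -0.78). Cdc25c had 13.3, 15.1 and 15.4 CPM in co-culture and 18.3, 16.0 and 16.8 CPM with LPS alone, and did not pass (log2 fold change -0.22, adjusted p = 0.0526). Its groups do not overlap, and without co-culture replicate 3 its adjusted p was 0.041. With the offset its log2 fold change was 0.09, and under library totals it passed as lower (-0.40, adjusted p = 0.00463).

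The rises of this set were the small CKS subunits and cyclin B2. Cks2 (chr13:51645232-51650660), a subunit that docks cyclin-dependent kinases to phosphorylated substrates, was the largest rise of all members. It had 100.3, 99.5 and 107.2 CPM in co-culture, against 47.1, 46.2 and 43.6 CPM with LPS alone (2.24-fold higher, log2 fold change 1.17 ± 0.06, adjusted p = 4.12e-07). Every co-culture library was far above every LPS library, and the log2 fold change was 0.44 with the offset. Cks1b, its close paralog, rose less; how reads that match both were counted is not stated. It had 65.3, 66.4 and 66.1 CPM in co-culture and 53.6, 57.5 and 55.8 CPM with LPS alone (1.18-fold higher, adjusted p = 0.00329). Ccnb2, the second mitotic B-type cyclin, had 29.8, 33.4 and 29.9 CPM in co-culture and 25.3, 27.0 and 24.8 CPM with LPS alone (1.21-fold higher, adjusted p = 0.00911). Both turned with the offset, Cks1b to -0.44 (adjusted p = 3.02e-05) and Ccnb2 to -0.26 (adjusted p = 0.00949), and neither passed when libraries were scaled by their totals (0.07 and 0.10, adjusted p = 0.356 and 0.316). Without LPS replicate 3 the adjusted p of Ccnb2 was 0.0518. Aurka, the centrosomal Aurora kinase, had 67.5, 72.3 and 65.4 CPM in co-culture and 65.1, 62.1 and 67.6 CPM with LPS alone, overlapping groups (log2 fold change 0.08, adjusted p = 0.306, offset -0.30).

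**Figure D4:**
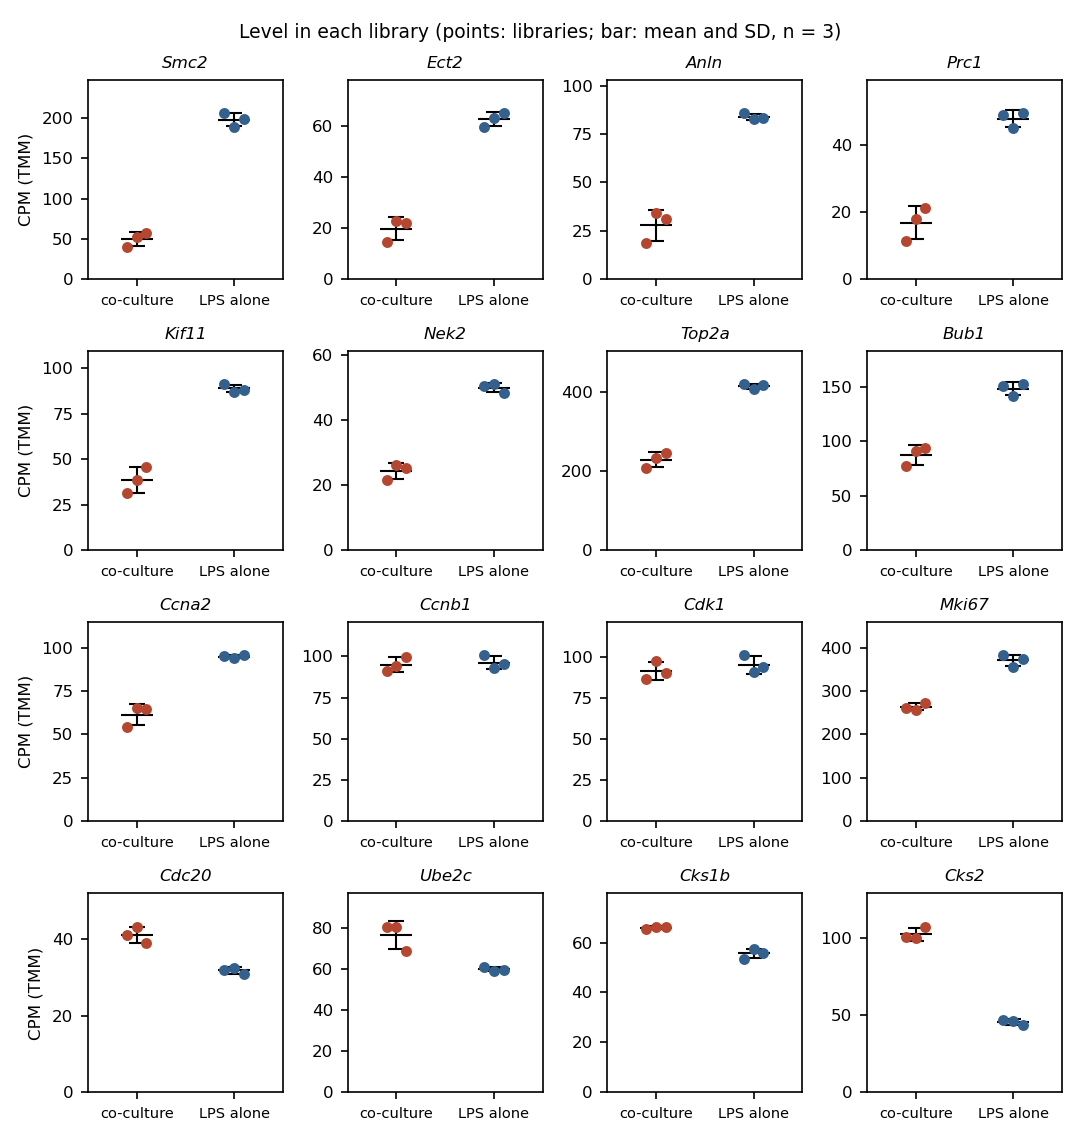
TMM-scaled CPM of 16 of the genes in each library, with co-culture in red at the left and LPS alone in blue at the right of each panel; points are libraries and bars give the mean and SD of 3. Smc2, Ect2, Anln, Prc1 and Nek2 separate widely, Cdk1 and Ccnb1 overlap, and Cdc20, Ube2c, Cks1b and Cks2 are higher in co-culture.

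All 6 genes of chromosome condensation and the chromosome surface fell, against 38.0% of all genes, with a median of -0.91. Of the 6, 4 were lower by at least 1.5-fold, against 22.7% of all genes. With the offset 5 were lower (83.3%, against 36.0% of all genes), 1 of them by at least 1.5-fold (16.7%, against 15.5%), and the median was -0.27. Smc2 (chr4:52439243-52488260), an ATPase core subunit of both condensins, had the largest fall of the 47 genes. It had 40.3, 52.3 and 56.8 CPM in co-culture, against 206.3, 189.7 and 198.6 CPM with LPS alone (3.98-fold lower, log2 fold change -1.99 ± 0.11, adjusted p = 5.15e-07, offset -1.47). No other member had groups this far apart by fold change. Its partner Smc4 (chr3:69004738-69034623) had 101.1, 123.1 and 139.0 CPM in co-culture, against 240.2, 232.7 and 240.3 CPM with LPS alone (1.96-fold lower, adjusted p = 1.23e-05). The fall of Smc4 in log2 was 0.97, and 0.50 with the offset.

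The non-SMC subunits of condensin I differed in size of change. Ncapg had 34.4, 39.5 and 44.5 CPM in co-culture and 79.8, 79.4 and 80.7 CPM with LPS alone (2.03-fold lower, adjusted p = 4.77e-06, log2 fold change -1.02, offset -0.24). Ncapd2 fell by 0.29 with and without the offset. Top2a (chr11:98992943-99024189), the topoisomerase that untangles sister chromatids, had 209.1, 232.4 and 246.7 CPM in co-culture, against 420.0, 407.9 and 417.0 CPM with LPS alone (1.81-fold lower, adjusted p = 2.82e-06). The groups were far apart, but the log2 fold change was -0.86 without and -0.24 with the offset. Mki67, whose protein coats mitotic chromosomes and is the standard proliferation antigen, had 260.8, 257.5 and 272.9 CPM in co-culture and 382.1, 356.2 and 373.8 CPM with LPS alone (1.41-fold lower, adjusted p = 1.92e-05). With the offset its log2 fold change was 0.03 (adjusted p = 0.579), which is no call. Tmpo, which encodes the lamina-associated LAP2 proteins that tie chromatin to the nuclear envelope, had 119.1, 135.6 and 134.7 CPM in co-culture and 230.8, 225.0 and 223.4 CPM with LPS alone (1.74-fold lower, adjusted p = 2.89e-06, log2 fold change -0.80, offset -0.19).

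At the centromere and kinetochore, 4 of 5 members fell (80.0%, against 38.0% of all genes), by a median of -0.24 over the 5. With the offset none was lower, against 36.0% of all genes, and 3 (Ndc80, Nuf2 and Cenpa) were higher (60.0%, against 35.4%). Cenpf, a large outer kinetochore and nuclear matrix protein, had 20.8, 26.7 and 27.0 CPM in co-culture and 47.1, 43.2 and 45.7 CPM with LPS alone (1.83-fold lower, adjusted p = 2.99e-05). Cenpe, the kinetochore kinesin that brings chromosomes to the spindle equator, had 61.9, 63.9 and 67.7 CPM in co-culture and 92.0, 92.1 and 91.6 CPM with LPS alone (1.42-fold lower, adjusted p = 2.22e-05). Both are long, at 15433 and 8620 bases, and with the offset their log2 fold changes were -0.08 (adjusted p = 0.303) and 0.11 (adjusted p = 0.0712).

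Nuf2 and Ndc80 are partners in the complex that grips microtubules. Nuf2 had 53.7, 56.0 and 60.1 CPM in co-culture and 68.6, 65.1 and 66.5 CPM with LPS alone (log2 fold change -0.24, adjusted p = 0.00658). Ndc80 had 37.5, 34.4 and 39.6 CPM in co-culture and 43.5, 42.7 and 44.2 CPM with LPS alone (-0.23, adjusted p = 0.0152). Their groups do not overlap, but the gap is small, and Ndc80 lost its call without co-culture replicate 2 (adjusted p = 0.0735) or LPS replicate 3 (adjusted p = 0.0597). With the offset both were higher, by 0.29 each (adjusted p = 0.000314 for Nuf2 and 0.00317 for Ndc80). Cenpa, the centromeric histone, did not pass (log2 fold change 0.10, adjusted p = 0.195). It passed as higher with the offset (0.28, adjusted p = 0.00137).

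All 4 genes of the spindle assembly checkpoint fell, with and without the offset, with medians of -0.72 without it and -0.36 with it. Of all genes, 38.0% fell without the offset and 36.0% with it. Mad2l1, which forms the diffusible inhibitor of CDC20, had 32.1, 41.7 and 39.8 CPM in co-culture, against 76.8, 69.7 and 70.4 CPM with LPS alone (1.91-fold lower, adjusted p = 1.38e-05). Bub1 (chr2:127801122-127831865), the kinetochore kinase, had 77.2, 91.5 and 93.7 CPM in co-culture and 151.1, 141.3 and 152.4 CPM with LPS alone (1.70-fold lower, adjusted p = 1.3e-05). Bub1b, which encodes BUBR1 of the checkpoint complex, had 59.8, 69.4 and 63.2 CPM in co-culture and 102.6, 102.1 and 102.4 CPM with LPS alone (1.60-fold lower, adjusted p = 9.08e-06). In each of these, the highest co-culture library was below the lowest LPS library. Ttk, the upstream kinase MPS1, had a log2 fold change of -0.67, and of -0.32 with the offset. The offset values of Mad2l1, Bub1 and Bub1b were -0.23, -0.39 and -0.74.

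Aurkb (chr11:69045647-69051664), the catalytic subunit of the chromosomal passenger complex that corrects faulty attachments, fell. In this complex of 3 listed genes, 1 fell, 1 rose and 1 did not pass, while with the offset 2 were lower and 1 higher. Of all genes, 38.0% fell and 37.5% rose, and with the offset 36.0% were lower and 35.4% higher. Aurkb had 35.2, 43.1 and 35.6 CPM in co-culture, against 64.4, 60.0 and 62.2 CPM with LPS alone (1.64-fold lower, log2 fold change -0.71 ± 0.09, adjusted p = 3.73e-05, offset -1.05). Birc5, the survivin subunit that targets the complex, was higher, with 73.7, 67.8 and 68.3 CPM in co-culture, against 60.7, 62.1 and 56.6 CPM with LPS alone (1.17-fold higher, adjusted p = 0.00914, log2 fold change 0.23, offset 0.21). The rise of Birc5 was lost under other choices: its adjusted p was 0.0613 without LPS replicate 3, and its log2 fold change was 0.05 (adjusted p = 0.507) under scaling by library totals. Incenp, the scaffold subunit, did not pass (log2 fold change -0.11, adjusted p = 0.104). It passed as lower without co-culture replicate 1 (adjusted p = 0.0219), with the offset (-0.31, adjusted p = 6.28e-05) and under library totals (-0.29, adjusted p = 0.00108).

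Among 6 spindle kinesins and spindle factors, 5 fell, against 38.0% of all genes, with a median of -0.59. With the offset 3 of the 6 were lower, against 36.0% of all genes, and the median was -0.26. Kif11 (chr19:37376403-37421859), the kinesin that pushes the spindle poles apart, had 31.3, 38.4 and 45.5 CPM in co-culture, against 91.2, 87.2 and 88.3 CPM with LPS alone (2.32-fold lower, log2 fold change -1.21 ± 0.11, adjusted p = 7.37e-06, offset -0.63). Hmmr, a spindle pole protein, had 28.9, 36.8 and 35.5 CPM in co-culture and 65.6, 65.7 and 65.4 CPM with LPS alone (1.95-fold lower, adjusted p = 7.17e-06, log2 fold change -0.96, offset -0.51). Kif18a, which damps chromosome movement at the plate, was the scarcest member per length and had 5.28, 8.40 and 9.70 CPM in co-culture and 17.8, 15.5 and 15.9 CPM with LPS alone (2.11-fold lower, adjusted p = 0.000326). In these genes, co-culture replicate 1 was the lowest library of all. Kif18a, at 9832 bases and 38.2% GC, did not pass with the offset (-0.26, adjusted p = 0.0857).

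The other spindle genes moved little. Kif4, a chromosome-arm kinesin, had a log2 fold change of -0.21 (adjusted p = 0.0116), and of -0.03 with the offset (adjusted p = 0.632). Kif2c, the depolymerising kinesin MCAK, also had -0.21 (adjusted p = 0.0359) but lost its call without co-culture replicate 3 or any 1 of the LPS libraries, with adjusted p-values of 0.0708 to 0.105, and its offset value was -0.26 (adjusted p = 0.00672). Tpx2, which activates Aurora A on the spindle, did not pass (-0.07, adjusted p = 0.25, offset 0.05). Under library totals Tpx2 passed as lower (-0.25, adjusted p = 0.00419).

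The genes of anaphase promotion held 3 rises among 4 members (75.0%, against 37.5% of all genes), with a median of 0.36. The median was 0.19 under library totals, where 29.0% of all genes rose, and turned to -0.19 with the offset, where 35.4% did. Cdc20 (chr4:118432901-118437352), the APC/C activator, had 41.0, 43.2 and 39.0 CPM in co-culture, against 31.9, 32.5 and 30.9 CPM with LPS alone (1.29-fold higher, log2 fold change 0.37 ± 0.07, adjusted p = 0.000689). Ube2c, the ubiquitin-conjugating enzyme of the APC/C, had 80.5, 80.7 and 68.9 CPM in co-culture and 61.0, 59.2 and 59.7 CPM with LPS alone (1.28-fold higher, adjusted p = 0.00125). Pttg1, which encodes securin, the inhibitor of separase, had 29.8, 28.8 and 27.9 CPM in co-culture and 22.2, 22.6 and 22.0 CPM with LPS alone (1.30-fold higher, adjusted p = 0.000703). In these genes every co-culture library was above every LPS library, and all passed as higher under library totals too (0.18 to 0.20). None did with the offset, where Cdc20 was lower at -0.27 (adjusted p = 0.00416), Ube2c was at -0.11 (adjusted p = 0.0741) and Pttg1 at 0.15 (adjusted p = 0.0549). Cdc20 and Ube2c overlap Elovl1 and Tnnc2 on the other strand.

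Espl1 (chr15:102296266-102324357), separase itself, moved against them. It had 20.8, 29.0 and 28.8 CPM in co-culture, against 53.5, 52.3 and 49.5 CPM with LPS alone (1.98-fold lower, log2 fold change -0.98 ± 0.12, adjusted p = 3.28e-05). With 56.1% GC it is the most GC-rich member, and its value with the offset was -0.88.

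Central spindle and cytokinesis had the lowest median of any role, at -1.52, and all 5 members fell, against 38.0% of all genes. With the offset too, 4 of them passed as lower by at least 1.5-fold (80.0%, against 15.5% of all genes), with a median of -0.97. Ect2 (chr3:27097222-27153878), the exchange factor that activates RhoA at the furrow, had 14.5, 22.7 and 21.9 CPM in co-culture, against 59.6, 63.1 and 64.9 CPM with LPS alone (3.18-fold lower, log2 fold change -1.67 ± 0.14, adjusted p = 4.08e-06, offset -1.18). Anln (chr9:22332012-22389188), the anillin scaffold of the contractile ring, had 18.8, 34.0 and 30.9 CPM in co-culture, against 85.9, 82.9 and 83.2 CPM with LPS alone (3.02-fold lower, log2 fold change -1.59 ± 0.17, adjusted p = 1.61e-05, offset -1.06). Prc1 (chr7:80294450-80316259), which bundles the microtubules of the central spindle, had 11.4, 17.9 and 21.1 CPM in co-culture, against 49.1, 45.1 and 49.5 CPM with LPS alone (2.87-fold lower, log2 fold change -1.52 ± 0.17, adjusted p = 2.47e-05, offset -0.94). In each of these genes the co-culture libraries lay far below the LPS libraries, and co-culture replicate 1 was again the lowest.

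Kif20a, the kinesin that carries Aurora B to the central spindle, had a log2 fold change of -1.01, and of -0.97 with the offset. It had 18.7, 27.8 and 31.1 CPM in co-culture and 53.5, 50.8 and 52.2 CPM with LPS alone (2.02-fold lower, adjusted p = 0.000144). It overlaps the APC/C gene Cdc23 on the other strand, which was also lower (17.0, 22.0 and 22.0 CPM in co-culture, against 47.7, 44.5 and 45.6 CPM with LPS alone). Kif23, the centralspindlin kinesin, had 53.8, 62.9 and 58.2 CPM in co-culture and 82.0, 79.1 and 77.0 CPM with LPS alone (1.36-fold lower, adjusted p = 0.000224), but -0.01 with the offset (adjusted p = 0.91).

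Members of a pair were also set against each other within a library, where scaling cancels. For Cks2 over Cks1b the log2 ratio was 0.63 ± 0.06 in co-culture and -0.29 ± 0.09 with LPS alone (SD, n = 3 each), a difference of 0.92. For Smc4 over Smc2 it was 1.28 ± 0.05 in co-culture and 0.26 ± 0.04 with LPS alone, a difference of 1.02. For Aurkb over Aurka it was -0.86 ± 0.10 in co-culture and -0.06 ± 0.05 with LPS alone, a difference of -0.79. These 3 differences were nearly as large once the trend with length and GC content was removed, at 0.88, 0.98 and -0.75. Cdc25c over Cdc25b differed by 0.30, and by 0.87 without the trend. Ccnb2 over Ccnb1 differed by 0.29 and Bub1b over Bub1 by 0.09, and both turned when it was removed, to -0.48 and -0.35. By a two-sided exact permutation test, 5 pairs had p = 0.1, the smallest p that 3 against 3 libraries can give (0.12 adjusted over the 6 pairs), and Bub1b over Bub1 had p = 0.3.

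**Figure D5:**
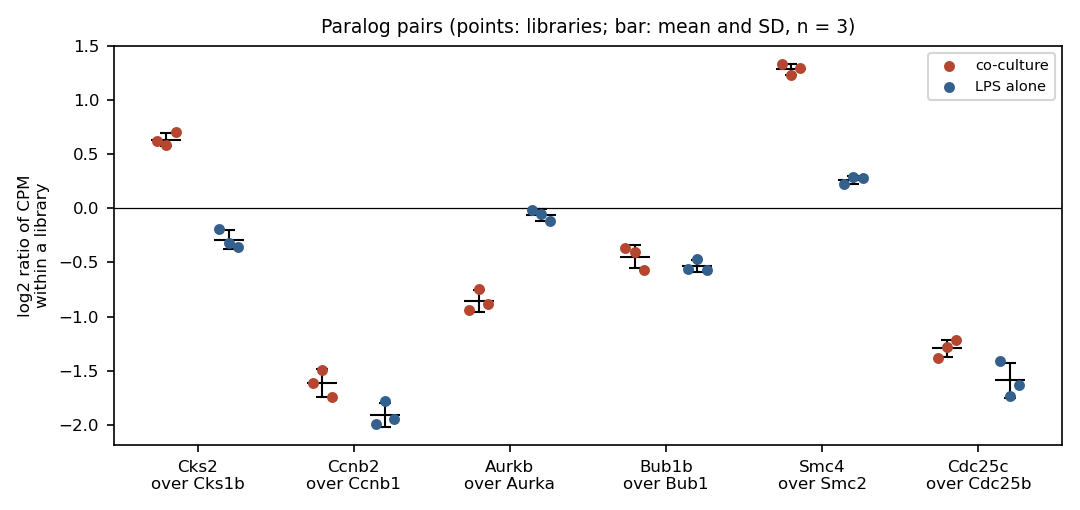
Log2 ratio of CPM within a library for 6 pairs of related genes, with co-culture in red to the left of LPS alone in blue; points are libraries and bars give the mean and SD of 3. The groups are widest apart for Smc4 over Smc2, Cks2 over Cks1b and Aurkb over Aurka, and overlap for Bub1b over Bub1.

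The order of abundance among the members shifted with these changes. Per length (RPKM from TMM-scaled counts), Cks2 was the most abundant member in both groups, at 147.9 ± 6.11 RPKM in co-culture and 65.9 ± 2.67 RPKM with LPS alone (SD, n = 3 each), and Cks1b followed at 58.5 ± 0.488 RPKM in co-culture and 49.4 ± 1.75 RPKM with LPS alone. In co-culture the next were Incenp, Ube2c and Aurka, at 41.0, 29.5 and 27.0 RPKM, of which Ube2c and Aurka do not differ beyond their spread (SD 2.58 and 1.38). With LPS alone the next were Top2a, Smc4 and Incenp, at 46.0, 45.6 and 44.3 RPKM, the first pair of which do not differ beyond their spread (SD 0.697 and 0.842). Smc2 stood at rank 24 in co-culture (9.09 ± 1.56 RPKM) and at rank 7 with LPS alone (36.2 ± 1.52 RPKM). Kif18a was the lowest in both, at 0.793 ± 0.231 RPKM in co-culture and 1.67 ± 0.123 RPKM with LPS alone.

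The wider machinery, 134 other mitosis genes in 5 lists of which 133 could be tested, also had more falls than rises. Of the 133, 77 were lower (57.9%, against 38.0% of all genes) and 32 higher (24.1%, against 37.5%), with a median of -0.31. With the offset 73 were lower (54.9%, against 36.0%) and 35 higher (26.3%, against 35.4%), with a median of -0.23. Among 20 cohesin and other condensin genes, 15 were lower (75.0%) and 2 higher, with a median of -0.83; with the offset 14 were lower and 3 higher (median -0.24). The 4 with the smallest adjusted p were Ncapg2 of condensin II (log2 fold change -1.34, offset -0.72), the cohesin regulators Pds5a (-1.17, offset -0.33) and Pds5b (-1.17, offset -0.43) and the cohesin subunit Stag2 (-0.93, offset -0.17). Ncapg2 had 51.0, 56.3 and 56.9 CPM in co-culture, against 144.8, 135.2 and 135.9 CPM with LPS alone (adjusted p = 2.3e-07). In 38 other spindle, centrosome and cytokinesis genes, 27 were lower (71.1%) and 4 higher (10.5%), with a median of -0.61 (27 and 6, median -0.50, with the offset). The 4 with the smallest adjusted p were the cytokinesis kinesin Kif14 (-1.53, offset -0.99), the centriole protein Sass6 (-1.18, offset -0.66), Haus6 of the augmin complex (-1.29, offset -0.74) and citron kinase, Cit (-1.09, offset -0.75).

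Of 36 other kinetochore and centromere genes, 20 fell (55.6%, against 38.0% of all genes) and 8 rose (22.2%, against 37.5%), the median being -0.29. With the offset 20 were lower (55.6%, against 36.0%) and 7 higher (19.4%, against 35.4%), with a median of -0.25. Knl1, the platform on which Bub1 and Bub1b dock, had 14.3, 19.2 and 21.2 CPM in co-culture, against 73.4, 63.4 and 71.8 CPM with LPS alone (log2 fold change -1.93, adjusted p = 1.26e-06, offset -1.15). Cenpi had -1.15 (offset -0.66), Dsn1 had -1.16 (offset -1.18) and Kntc1 had -1.21 (offset -0.76). Of 19 tested regulators of entry and exit, 10 fell (52.6%, against 38.0% of all genes) and 5 rose (26.3%, against 37.5%), the median being -0.19. With the offset 9 were lower (47.4%, against 36.0%) and 7 higher (36.8%, against 35.4%), with a median of -0.11. Mastl, the Greatwall kinase that restrains the phosphatase opposing Cdk1, had 8.02, 10.1 and 9.22 CPM in co-culture, against 32.2, 25.4 and 29.2 CPM with LPS alone (-1.67, adjusted p = 1.94e-06, offset -1.15). Wee1, the kinase that inhibits Cdk1, had 8.87, 9.83 and 11.7 CPM in co-culture, against 26.7, 26.0 and 24.6 CPM with LPS alone (-1.35, adjusted p = 3.02e-06, offset -1.49), and Cdc25a, which opposes it, had -0.69 (offset -0.23). Activators and inhibitors of Cdk1 were thus both among the falls. Aurkaip1, which encodes an Aurora A interacting protein that also serves in the mitochondrial ribosome, was higher (0.98, adjusted p = 1.04e-05, offset 0.30).

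In the list of the APC/C, rises outnumbered falls. Of its 20 subunits, adaptors and inhibitors, 13 were higher (65.0%, against 37.5% of all genes) and 5 lower (25.0%, against 38.0%). The median was 0.38. With the offset 12 of the 20 were higher, against 35.4% of all genes, and 3 were lower, against 36.0% (median 0.31). Under library totals 10 of the 20 were higher, against 29.0% of all genes, and 5 were lower, against 46.7% (median 0.20). Anapc16, a small subunit, had 53.9, 50.1 and 45.8 CPM in co-culture, against 30.1, 29.5 and 27.8 CPM with LPS alone (log2 fold change 0.78, adjusted p = 1.25e-05, offset 1.07). The other 3 with the smallest adjusted p were lower. Anapc1, the scaffold subunit, had 99.3, 111.5 and 115.3 CPM in co-culture, against 215.1, 206.2 and 203.1 CPM with LPS alone (-0.94, adjusted p = 1.85e-06, offset -0.29). Cdc23 had -1.18 (offset -0.71), and Cdc27 had -0.51, which was 0.08 with the offset (adjusted p = 0.22). These lists share the 6 libraries and the length trend with the members and do not add independent evidence.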

How the data were processed

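RNA-seq libraries made from poly(A) RNA were grouped by sample titles, 3 with LPS and BMSC co-culture and 3 with LPS alone. The title of LPS replicate 3 names RAW264.9, but its cell line tag names RAW264.7, and it was kept. The authors deposited a table of read counts (whole numbers per gene, not normalized) and FPKM values, which equal the count over gene length and total count to within 0.1%. The aligner was HISAT2 2.0.5 and the build mm10, per the submitters' processing notes. The counting tool and any use of strand are not stated there, and the labels' protocols name no strand-marking step. Of 21958 gene rows, 21850 are in GENCODE M21 (GRCm38), from which coordinates and GC content come; the table's own start equals M21 for only 517 and was not used.

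Counts were tested with edgeR 4.0.16 (R 4.3.3): quasi-likelihood, robust, TMM scaling, default expression filter (11103 genes), group as the only term, Benjamini-Hochberg adjustment over all genes, threshold 0.05. Errors of fold changes are SE; a count floor of 3 is 0.133 to 0.169 CPM, and member counts ran from 106 to 9983. Reads carry no molecular identifiers, so such floors cover counting error only. The length and GC offset takes natural splines with 5 degrees of freedom per property and library. Other alternatives were RLE size factors, library totals, DESeq2 1.42.0, limma 3.58.1 on log2(FPKM + 1) and log2(FPKM + 0.1) for genes with mean FPKM of at least 1, no filter, a minimum of 10 counts per library, a replicate block and leaving out each library.

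The members and lists were chosen with earlier results of these data known. Library values are given, per role, for up to 3 called members with the smallest adjusted p, called members moving against their role's majority and both genes of each pair; a few others were added after their values were seen. For other lists, up to 4 called genes with the smallest adjusted p are named, and for cell type markers the 2 most abundant. Values of Mybl2, Cdkn1b, Cdkn2c, Cdkn2d, Cdk4, Ptprc, Fcgr1 and Lum were added outside this rule.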

Additional observations from a re-analysis of the deposited data

How the results depend on the processing

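Under RLE size factors, DESeq2, no expression filter, a minimum of 10 counts per library and the replicate block, all 47 members kept their call and direction. Same-numbered libraries showed no visible shared deviation (correlations -0.042, -0.024 and 0.04), and with the replicate block 7 members were higher and 33 lower. The labels only share numbers, and these correlations cannot tell whether the libraries were paired. Rises numbered 4 under library totals and under limma on log2(FPKM + 1) and log2(FPKM + 0.1), against 7, and rises of other mitosis genes 20 under library totals and 21 under limma on log2(FPKM + 0.1), against 32. Falls of members numbered 38 under library totals and both limma fits, against 33. Under library totals the added falls were Cdk1, Ccnb1, Cdc25c, Incenp and Tpx2. The member median of -0.51 moved to -0.69 under library totals, -0.65 under limma on log2(FPKM + 1) and -0.69 under limma on log2(FPKM + 0.1). Leaving out 1 library gave medians of -0.54 to -0.47.

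With the length and GC offset, and with it and the replicate block together, the median was -0.27, 13 members were lower by at least 1.5-fold and 0 were higher by that much. The ratio differences of Ccnb2 over Ccnb1 and Bub1b over Bub1 reversed to -0.48 and -0.35. Among the 47 members and the genes of other lists named by the rule, those that reversed in both of these fits were Cdk1 (0.09), Ccnb1 (0.22), Cdc25c (0.09), Tpx2 (0.05), Cenpe (0.11), Mki67 (0.03), Ndc80 and Nuf2 (0.29 each), Cdc27 (0.08), Ccnb2 (-0.26), Aurka (-0.30), Cdc20 (-0.27), Cks1b (-0.44) and Ube2c (-0.11, and -0.12 with the block). Aurka was also at -0.10 and Cenpa at -0.07 under library totals and limma on log2(FPKM + 0.1), and at -0.10 and -0.06 under limma on log2(FPKM + 1). Ccnb1 lay between -0.05 and 0.02 when 1 library was left out. The cause of these changes was not tested. The lowest count of a member in a library was 106.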

Other observations

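Neighbouring gene groups were read beside the members. Another list held 23 genes of the MuvB, MYB, RB, E2F and NF-Y families, which switch the cell cycle genes on and off. Of these, 14 were lower in co-culture (60.9%, against 38.0% of all genes) and 4 higher (17.4%, against 37.5%). The median log2 fold change was -0.65. With the length and GC offset 17 were lower (73.9%, against 36.0%) and 3 higher (13.0%, against 35.4%), with a median of -0.51. The pocket proteins Rbl1 and Rbl2, which repress cell cycle genes in resting cells, were among the lowest. Rbl1 had 24.9, 32.7 and 33.3 CPM in co-culture, against 118.8, 117.1 and 121.3 CPM with LPS alone (log2 fold change -1.97, adjusted p = 3.4e-07, offset -1.49). Rbl2 had 2.59, 2.36 and 2.83 CPM in co-culture, against 11.6, 11.6 and 12.0 CPM with LPS alone (-2.18, adjusted p = 4.18e-07, offset -1.79). Mybl1, a relative of the activator B-MYB, and Lin54, the MuvB subunit that binds the CHR, had -1.88 (offset -1.28) and -1.39 (offset -1.24).

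Of 15 G1 cyclins, CDKs and CDK inhibitors, 12 could be tested. Among these, 8 were lower (66.7%, against 38.0% of all genes) and 3 higher (25.0%, against 37.5%), with a median of -0.44. With the offset 7 were lower (58.3%, against 36.0%) and 2 higher (16.7%, against 35.4%), with a median of -0.38. Ccnd1, the cyclin of G1 entry, had 68.6, 74.5 and 73.9 CPM in co-culture, against 193.4, 194.3 and 201.0 CPM with LPS alone (log2 fold change -1.44, adjusted p = 9.02e-08, offset -1.48). Ccne2, a cyclin of the G1 to S step, had 11.2, 21.9 and 22.9 CPM in co-culture, against 76.4, 72.3 and 72.9 CPM with LPS alone (-1.99, adjusted p = 1.21e-05, offset -1.60). Cdkn1a, the p21 inhibitor, was higher, with 380.3, 316.8 and 306.3 CPM in co-culture, against 154.4, 155.8 and 168.3 CPM with LPS alone (1.07, adjusted p = 3.07e-06, offset 0.78). The other inhibitors tested went both ways. Cdkn1b was lower (-1.22, adjusted p = 2.59e-05, offset -0.91), as was Cdkn2c (-0.32, adjusted p = 0.0184, offset -0.81). Cdkn2d was higher (0.38, adjusted p = 0.0111) but at -0.36 with the offset. The kinase gene Cdk4 was higher (0.55, adjusted p = 3.48e-05, offset 0.24). Cdk6 was at -0.74 without and at -0.05 with the offset, where it did not pass (adjusted p = 0.354). Cdkn2a, Cdkn2b and Cdkn1c had 0 counts in every library.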
